A study of Homo sapiens with 12 samples.

Results

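EGR1, EGR2, EGR3, EGR4, NAB1, NAB2, IER2, IER3, IER5 and DUSP1 are EGR transcription factors, their corepressors and other early response genes. These 10 genes were followed among the 56508 symbols of an RNA sequencing experiment on 2 human small cell lung cancer lines. They were taken by gene symbol. The set was picked because EGR1 stood far higher with drug in one line, H211, and not in the other. EGR1's values are therefore given as a description with no test, and the other 9 genes were added by name. H82 and H211 are established lines labelled WT in genotype. Cells of each line received 1 µM ORY-1001 or the vehicle, labelled PBS, in 3 libraries a group and 12 in all. ORY-1001 inhibits LSD1, a histone demethylase that works with corepressor complexes. The treatment label gives 7 days and the protocol gives 10 days. The labels do not say that replicates were separate cultures, and every p-value rests on a spread among libraries that may be technical. Each line stands for itself alone, so a difference between lines is one between these 2 lines.

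EGR factors are zinc finger proteins that bind GC-rich DNA. Their genes are switched on within minutes of a growth factor, stress or depolarizing signal, without new protein synthesis. The signal commonly runs through ERK, JNK or p38 kinases to SRF and its ETS partners. SRF sits on CArG boxes in the promoters of EGR1 and EGR2. NAB1 and NAB2 bind EGR factors and repress their activity, and DUSP1 removes the activating phosphates of the MAP kinases, so both act as brakes.

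Levels are deposited TPM values, rescaled between libraries and corrected for transcript length, and a mean ± SD covers the 3 libraries of a group. Sequencing depth is unknown, and counting intervals are not possible. Column totals ran from 967415 to 1111988. The neuroendocrine marker list summed to between 624 and 643 in H82 controls and between 91.7 and 95.6 in H211 controls. The tuft-cell list summed to between 22.3 and 28.8 in H82 controls and between 1420 and 1435 in H211 controls. Not every marker followed its list. NCAM1, a neuroendocrine marker, was at 65.34, 67.74 and 64.82 in H82 controls and at 58.55, 56.63 and 54.18 in H211 controls. It made up most of the H211 sum. CHAT, of the tuft-cell list, was at 15.45, 14.09 and 15.23 in H82 controls and at 6.027, 6.85 and 6.362 in H211 controls. Transcripts of blood cells were present in all 12 libraries. The 23 blood markers summed to 151.7, 265 and 45.95 in H211 control replicates 1, 2 and 3, and to 49.93, 39.84 and 54.74 in the H211 ORY-1001 libraries. In H82 they summed to between 43.67 and 59.03 in controls and to 51.5, 53.94 and 156.3 with ORY-1001. These H82 sums hide a change of make-up. MPO was at 0.08491, 0.03768 and 0.02838 in controls against 8.707, 8.547 and 24.26 with ORY-1001. SRGN was at 0.2846, 0.96 and 0.7114 against 14.44, 14.11 and 11.25. HBG2 was at 23.9, 28.15 and 22.43 against 0, 0.1204 and 53.02. The part of such transcripts in the H82 calls was not tested. In H211 15 of the 23 reached 1 in a library of either group, and 1 (ELANE) was at 0 in every control and 2 (HBB and CD3E) in every treated library. In H82 4 reached 1 among controls and 12 with ORY-1001. HBB, ELANE, PRTN3, TYROBP, S100A8 and S100A9 were at 0 in every H82 control, and HBB alone in every treated one.

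The EGR factors stood in a fixed order of abundance in treated H211 cells, with EGR1 far above EGR2 and both above EGR3 and EGR4. EGR1, the family's prototype on chromosome 5 (138465490 to 138469315 on GRCh38, plus strand), was at 329.9, 367.7 and 310 in the H211 ORY-1001 libraries. H211 controls held EGR1 at 11.66, 11.41 and 13.33. All 3 treated libraries lay far above all 3 controls, at 336 ± 29.3 against 12.1 ± 1.04, a 27.7-fold ratio of means. The EGR1 ratio stayed between 26.4 and 29.1 when any 1 library was left out. In H82 EGR1 was at 0.1664, 1.238 and 1.302 in controls against 1.044, 0.2196 and 0.3843 with ORY-1001, so these groups overlapped near the bottom of the scale. By level EGR1 therefore ran from treated H211 through H211 controls to H82, whose 2 groups did not separate. In treated H211 it stood above 97.5% of tested genes, and its log2 fold change there ranked 3 among 15456. In bulk RNA, fewer cells that express a gene and less RNA per cell cannot be told apart.

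EGR2, the factor best known for myelination and hindbrain patterning, lies on chromosome 10 (62811996 to 62919900, minus strand). It was at 4.999, 6.08 and 4.408 in treated H211 and at 0.4481, 0.2232 and 0.2033 in H211 controls. The treated libraries lay above all controls, at 5.16 ± 0.848 against 0.292 ± 0.136, a 17.7-fold ratio of means. That ratio ran from 15.4 to 24.2 when 1 library was left out. In H82 EGR2 stayed at or under 0.1426 in all 6 libraries. A gene was tested where 3 or more libraries reached 1, and EGR2 reached this through treated H211 alone. It had to differ there, so no test is given for EGR2.

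EGR3 and EGR4 did not pass that filter. EGR3, a factor of muscle spindles and lymphocytes, was at 0.4818, 0.5668 and 0.5023 in treated H211 and at 0.01738, 0.04312 and 0.1303 in H211 controls. EGR4 on chromosome 2 (73290929 to 73293705, minus strand) was at 0.1918, 0.1542 and 0.06745 in treated H211. It was listed at 0 in H211 control replicates 1 and 2 and at 0.01627 in replicate 3. In both genes every treated H211 library lay above every H211 control, at levels so low that no fold is given. In H82 EGR3 and EGR4 were listed at 0 in every control and reached at most 0.01309 in treated libraries. Of the 10 genes, 8 passed the filter.

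**Figure D1:**
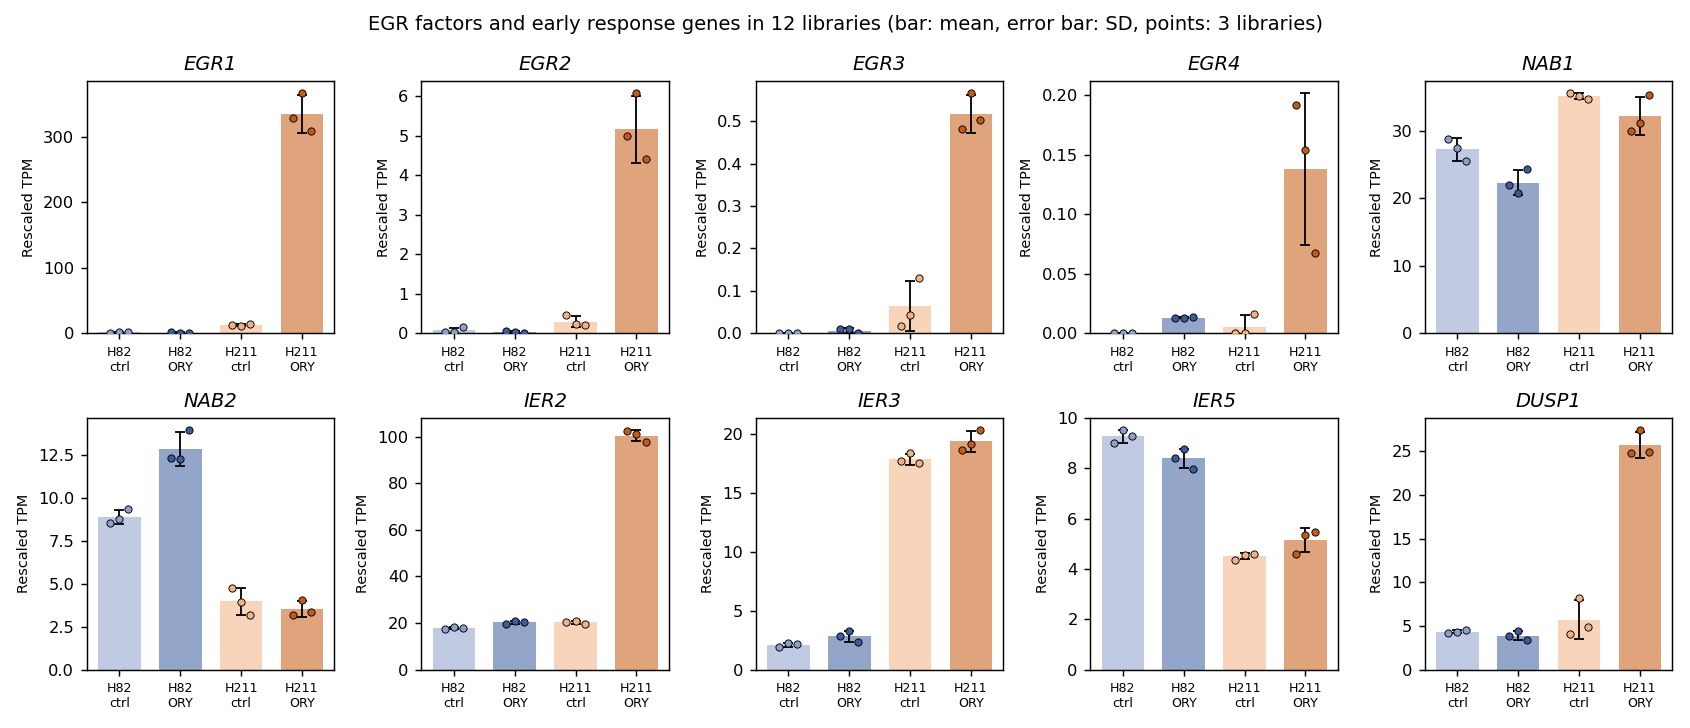
Levels of the 10 genes in rescaled TPM (vertical axes, linear and starting at 0, each gene on its own scale) in the 4 groups. Bars are means of 3 libraries, error bars SD and points single libraries. EGR1, EGR2, EGR3, EGR4, IER2 and DUSP1 stand highest in treated H211, IER3 is high in both H211 groups, and NAB2 and IER5 are higher in H82.

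The promoters of the 4 genes with the largest ratios among those that passed the filter are shown to set their motifs side by side. RefSeq windows on GRCh38.p14 were matched by symbol for 8 of the 10 genes, in 12 windows, and the 250 bases before the annotated start were searched on both strands. Motifs were the CArG box, the cyclic AMP response element core TGACG, the full element TGACGTCA, which holds that core on both strands, and the EGR site GCGNGGGCG. In the sequences, written 5′ to 3′ on the gene's strand, capitals mark CArG boxes and TGACG cores, the latter reading CGTCA on the other strand. The windows are chr5:138465229-138465478 (plus) for EGR1, chr10:62816367-62816616 (minus) for EGR2, chr19:13150161-13150410 (plus) for IER2 and chr5:172771196-172771445 (minus) for DUSP1.
EGR1: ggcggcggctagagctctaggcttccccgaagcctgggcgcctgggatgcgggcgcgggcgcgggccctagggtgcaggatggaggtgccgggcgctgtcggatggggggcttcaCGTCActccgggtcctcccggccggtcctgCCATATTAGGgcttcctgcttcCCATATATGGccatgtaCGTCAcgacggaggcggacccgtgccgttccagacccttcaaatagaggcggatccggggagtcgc
EGR2: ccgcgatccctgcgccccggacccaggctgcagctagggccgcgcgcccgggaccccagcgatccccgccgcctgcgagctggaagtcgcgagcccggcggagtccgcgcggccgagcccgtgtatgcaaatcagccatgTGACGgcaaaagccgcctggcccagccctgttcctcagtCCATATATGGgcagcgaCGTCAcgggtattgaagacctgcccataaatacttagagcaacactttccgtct
IER2: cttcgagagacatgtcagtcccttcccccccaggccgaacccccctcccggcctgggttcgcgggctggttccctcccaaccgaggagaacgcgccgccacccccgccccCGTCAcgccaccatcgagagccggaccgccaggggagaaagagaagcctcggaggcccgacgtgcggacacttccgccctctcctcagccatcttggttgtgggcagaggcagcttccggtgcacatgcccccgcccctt
DUSP1: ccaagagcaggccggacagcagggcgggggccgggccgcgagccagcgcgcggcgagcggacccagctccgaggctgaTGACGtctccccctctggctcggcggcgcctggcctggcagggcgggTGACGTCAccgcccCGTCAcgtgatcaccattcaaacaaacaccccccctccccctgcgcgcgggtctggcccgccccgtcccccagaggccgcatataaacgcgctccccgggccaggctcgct

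EGR1 held 2 CArG boxes, CCATATTAGG from 105 to 96 bases and CCATATATGG from 83 to 74 bases before its start. EGR2 held 1, with the same letters CCATATATGG, from 71 to 62 bases before the start of 1 of its 3 windows. Among 35116 windows of all genes 1.16% held a CArG box. No CArG box was found in the windows of EGR4, NAB1, NAB2, IER2, IER5 and DUSP1, which says only that these letters are not in these windows. The TGACG core, present in 21.2% of all windows, occurred 2 times in EGR1 and in that EGR2 window, 2 times in EGR4, once in IER2 and in each of 2 NAB1 windows, and 4 times in DUSP1. DUSP1 was the single member with the full element TGACGTCA (1.65% of all windows), from 125 to 118 bases before its start. The EGR site, in 8.41% of all windows, occurred once in EGR1 and NAB2, and 2 and 3 times in 2 overlapping NAB1 windows. The 2 sites of the first NAB1 window overlap each other and are among the 3 of the second. A match is a description of the sequence and no evidence of binding.

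**Figure D2:**
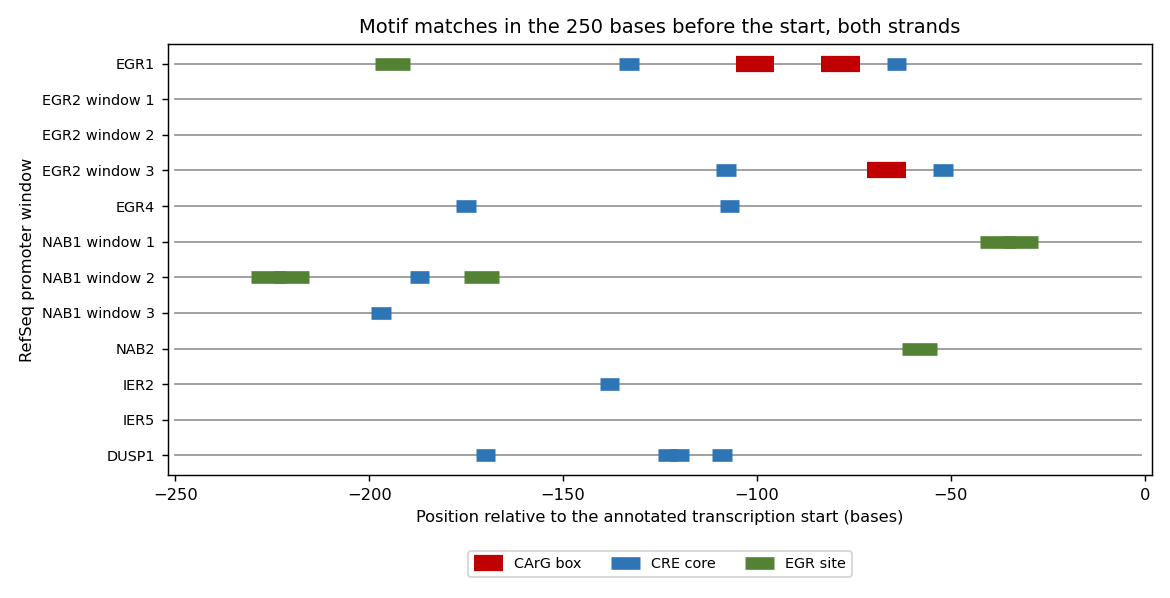
Motif matches (coloured blocks) in the 12 RefSeq windows, with the position before the annotated start in bases on the horizontal axis and 1 window per row. CArG boxes appear in the EGR1 window and in 1 EGR2 window, and DUSP1 carries 4 TGACG cores, of which 2 form the full element.

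Neither NAB corepressor was called in H211, and in H82 NAB1 fell and NAB2 rose. NAB1 on chromosome 2 (190646746 to 190692766, plus strand) was at 35.64, 35.24 and 34.8 in H211 controls against 30.03, 31.25 and 35.41 with ORY-1001, and the groups overlapped (log2 fold change -0.13, SE 0.073, adjusted p = 0.265). In H82 NAB1 fell from 27.3 ± 1.65 to 22.3 ± 1.82. Its libraries did not overlap, at 28.79, 27.51 and 25.51 against 21.93, 20.76 and 24.32 (log2 fold change -0.28, SE 0.073, adjusted p = 0.00949). NAB2 on chromosome 12 (57088894 to 57095476, plus strand) is itself a known EGR target. Its H211 libraries overlapped, at 4.768, 3.971 and 3.219 in controls and 3.207, 4.093 and 3.359 with ORY-1001 (log2 fold change -0.12, SE 0.116, adjusted p = 0.514). In H82 NAB2 rose 1.44-fold, from 8.579, 8.79 and 9.396 to 12.33, 12.3 and 14, with no overlap (log2 fold change 0.48, SE 0.116, adjusted p = 0.00585). The NAB2 responses differed between the lines (H211 minus H82 -0.61 on the log2 scale, SE 0.164, adjusted p = 0.0156). Without the 4 libraries set apart in earlier work on these data, which sought blood transcripts, though all 12 libraries held some (H82 ORY-1001 replicate 3, H211 control replicates 1 and 2 and H211 ORY-1001 replicate 3) this difference was -0.29 (adjusted p = 0.29). NAB1 responses were not shown to differ (0.15, SE 0.103, adjusted p = 0.299). These and all later adjusted p-values come from limma with Benjamini-Hochberg adjustment over the 15456 tested genes.

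Of the IER genes, IER2 alone was called in H211, and IER2 and IER3 were called in H82. IER2, a small nuclear protein induced by growth signals, lies on chromosome 19 (13150415 to 13154908, plus strand). It was at 20.65, 20.97 and 19.71 in H211 controls against 102.5, 101.2 and 97.64 with ORY-1001, a tight and fully separated rise of 4.91-fold (log2 fold change 2.24, SE 0.042, adjusted p = 4.26e-11). In H82 IER2 went from 17.65, 18.33 and 18.02 to 19.77, 20.76 and 20.49. That rise of 1.13-fold also passed the test, with no overlap (log2 fold change 0.17, SE 0.042, adjusted p = 0.00785). The response was larger in H211 by 2.07 on the log2 scale (SE 0.060, adjusted p = 4.98e-09).

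IER3, a stress-induced regulator of cell death and ERK signalling, was high in H211 in both groups and rose in H82 from a low level. It lies in the MHC region of chromosome 6 (30743199 to 30744554, minus strand), between FLOT1 and DDR1 among tested genes. In H211 IER3 was at 17.67, 18.37 and 17.51 in controls against 18.63, 19.09 and 20.34 with ORY-1001. Those groups did not overlap but the change missed the threshold (log2 fold change 0.11, SE 0.089, adjusted p = 0.446). In H82 the controls held 1.929, 2.241 and 2.145 and the treated libraries 2.889, 3.257 and 2.337, a rise without overlap (log2 fold change 0.30, SE 0.089, adjusted p = 0.0195). The H82 call was lost without H82 control replicate 1 (adjusted p = 0.0667), without H82 ORY-1001 replicate 1 (0.0547) or 2 (0.078), and with the H82 libraries fitted alone (0.0922). The difference between the responses was -0.19 (SE 0.126, adjusted p = 0.295).

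IER5, which takes part in the heat shock response through HSF1, lies on chromosome 1 (181088712 to 181092899, plus strand). It was at 4.364, 4.57 and 4.603 in H211 controls against 4.616, 5.363 and 5.477 with ORY-1001 (log2 fold change 0.16, SE 0.073, adjusted p = 0.172). H82 held it at 9.022, 9.537 and 9.288 in controls against 8.436, 8.766 and 7.99 with ORY-1001 (log2 fold change -0.13, SE 0.073, adjusted p = 0.178). In neither line did the groups overlap, yet neither change passed the test. The difference between the IER5 responses was 0.29 (SE 0.103, adjusted p = 0.0546). It passed with a pseudocount of 5 (0.047), without a trend in the variance prior (0.0333) and without H211 ORY-1001 replicate 1 (0.0228).

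DUSP1, the dual-specificity phosphatase also called MKP-1, rose in H211 beside EGR1 and IER2. It lies on chromosome 5 (172768090 to 172771195, minus strand), the same chromosome as EGR1. H211 controls held DUSP1 at 4.124, 8.237 and 4.847 and treated libraries at 24.76, 27.47 and 24.93. The groups were well apart, at 5.74 ± 2.2 against 25.7 ± 1.52, 4.48-fold (log2 fold change 2.03, SE 0.175, adjusted p = 1.5e-05). The highest control, 8.237, was in H211 control replicate 2, which also had the highest sum of blood markers. Without that library the ratio of means was 5.73. In H82 the DUSP1 groups overlapped, at 4.226, 4.297 and 4.509 in controls and 3.865, 4.478 and 3.403 with ORY-1001 (log2 fold change -0.13, SE 0.175, adjusted p = 0.614). The responses differed by 2.16 (SE 0.248, adjusted p = 8.38e-05). The blood marker sums of treated H211 (39.84 to 54.74) overlapped those of its controls (45.95 to 265), and their part in the change of DUSP1 was not tested.

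**Figure D3:**
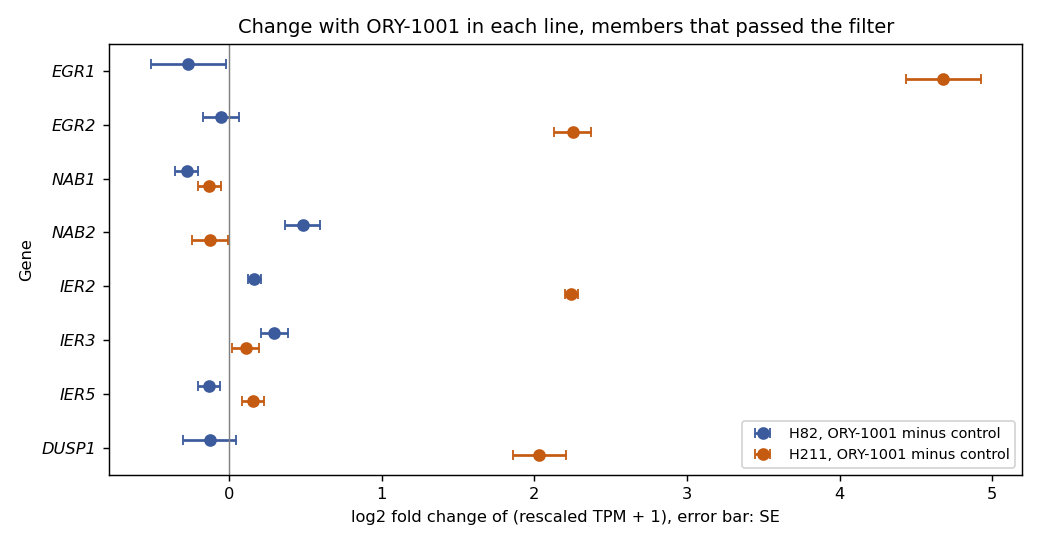
Log2 fold change of rescaled TPM + 1 with ORY-1001 (horizontal axis) for the 8 genes that passed the filter, with H82 in blue, H211 in orange and the SE as error bars. In H211 EGR1 (4.68), EGR2 (2.25), IER2 (2.24) and DUSP1 (2.03) lie far to the right, and the other 4 lie within 0.16 of 0.

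Counting the 6 genes tested without regard to a single high group (NAB1, NAB2, IER2, IER3, IER5 and DUSP1), 2 rose and 0 fell in H211, where 18.6% of all tested genes were called (8.95% higher and 9.61% lower). In H82 3 rose and 1 fell, where 43.0% of all tested genes were called (19.1% higher and 23.9% lower). Equal totals without mitochondrial genes split the H211 calls into 961 higher and 2016 lower genes, against 1383 and 1485, and equal totals into 950 and 1759. The response differed between the lines in 3 of 6, against 32.1% of all genes (17.8% higher and 14.3% lower). Since the set was chosen by EGR1's response in these contrasts, nothing is read from these shares.

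The controls showed how the lines differ without drug. IER3 was 8.48-fold higher in H211, at 17.9 ± 0.459 against 2.11 ± 0.16 (log2 difference 2.60, SE 0.089, adjusted p = 1.15e-10). NAB1 was 1.29-fold higher in H211 (0.36, SE 0.073, adjusted p = 0.000695). IER2 was 1.14-fold higher there, at 20.4 ± 0.656 against 18 ± 0.34 (0.17, SE 0.042, adjusted p = 0.00249), a call lost without the 4 libraries set apart in earlier work (0.12, adjusted p = 0.124). NAB2 was 2.24-fold higher in H82, at 8.92 ± 0.424 against 3.99 ± 0.775 (-1.0, SE 0.116, adjusted p = 6.55e-06). IER5 was 2.06-fold higher in H82, at 9.28 ± 0.258 against 4.51 ± 0.129 (-0.90, SE 0.073, adjusted p = 2.6e-07). DUSP1 groups overlapped (0.29, SE 0.175, adjusted p = 0.151), and DUSP1 passed without H211 control replicate 1 (0.0252) and with totals that leave out mitochondrial genes (0.0422). So 5 of 6 differed, beside 80.5% of all tested genes (39.7% higher and 40.8% lower in H211). EGR1 was at 12.1 ± 1.04 in H211 controls and at 0.902 ± 0.638 in H82 controls, without overlap.

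With ORY-1001 in both lines, all 6 of these genes differed between H211 and H82, beside 80.2% of all tested genes (39.7% higher and 40.6% lower in H211). DUSP1 was then 6.57-fold higher in H211 (log2 difference 2.45, SE 0.175, adjusted p = 8.82e-08) and IER2 4.94-fold higher (2.25, SE 0.042, adjusted p = 1.29e-12). NAB2 was 3.63-fold higher in H82, at 12.9 ± 0.977 against 3.55 ± 0.474 (-1.61, SE 0.116, adjusted p = 9.23e-08). These libraries also enter the drug contrasts above. IER3 remained 6.84-fold and NAB1 1.44-fold higher in H211, and IER5 1.63-fold higher in H82 (adjusted p from 2.37e-10 to 4.31e-05).

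The genes fell into sets by their course over the 12 libraries. Pearson's r of log2 values, given as a description over 12 libraries that share lines and treatments, was 0.954 for EGR1 with EGR2, 0.945 with DUSP1 and 0.927 with IER2. IER2 and EGR2 had r = 0.99, and IER2 and DUSP1 0.972. NAB2 ran against EGR1 (r = -0.844) and against IER3 (-0.929), and with IER5 (0.884). IER3 and IER5 ran opposite to each other (-0.965), since IER3 was high in H211 and IER5 in H82.

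Among the 5 genes most like EGR1 in course, taken from those with a group mean of at least 5, were CYR61, CYP26A1 and GPC3 (r = 0.992, 0.992 and 0.991 over the 12 libraries). CYR61, a matricellular protein and SRF and YAP target, was at 13.2 ± 0.984 against 2.42 ± 0.47 in H211. CYP26A1, which breaks down retinoic acid, was at 7.07 ± 0.798 against 1.09 ± 0.28, and GPC3, a cell surface glypican, at 48.5 ± 2.37 against 9.57 ± 1.22. These 3 genes were highest in treated H211 and next highest in H211 controls.

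For the other genes the closest were NPY and BTN3A3 with EGR2 (r = 0.994 and 0.991), BTN3A3 and FOSB with IER2 (0.996 and 0.988) and IPCEF1 and FOSB with DUSP1 (0.987 and 0.977). BTN3A3, FOSB and IPCEF1 passed the filter through treated H211 alone. Their r with genes that are high there was largely fixed by that, and nothing is read from it. FOSB, an AP-1 subunit, was at 5.62, 6.633 and 4.742 in treated H211 and at 0.03177, 0.3877 and 0.127 in H211 controls. The glycolytic enzyme HK2 was closest to NAB2 (0.99), at 59.3 ± 1.69 and 87.5 ± 4.39 in H82 controls and treated cells and 23 ± 1.8 and 20.7 ± 0.72 in H211. The next was CYTH1 (0.989). ME1, the malic enzyme, and CASP8, an initiator caspase, were closest to IER3 (0.999 and 0.998), and HOXC4 and SEMA6D to IER5 (0.996 and 0.993).

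**Figure D4:**
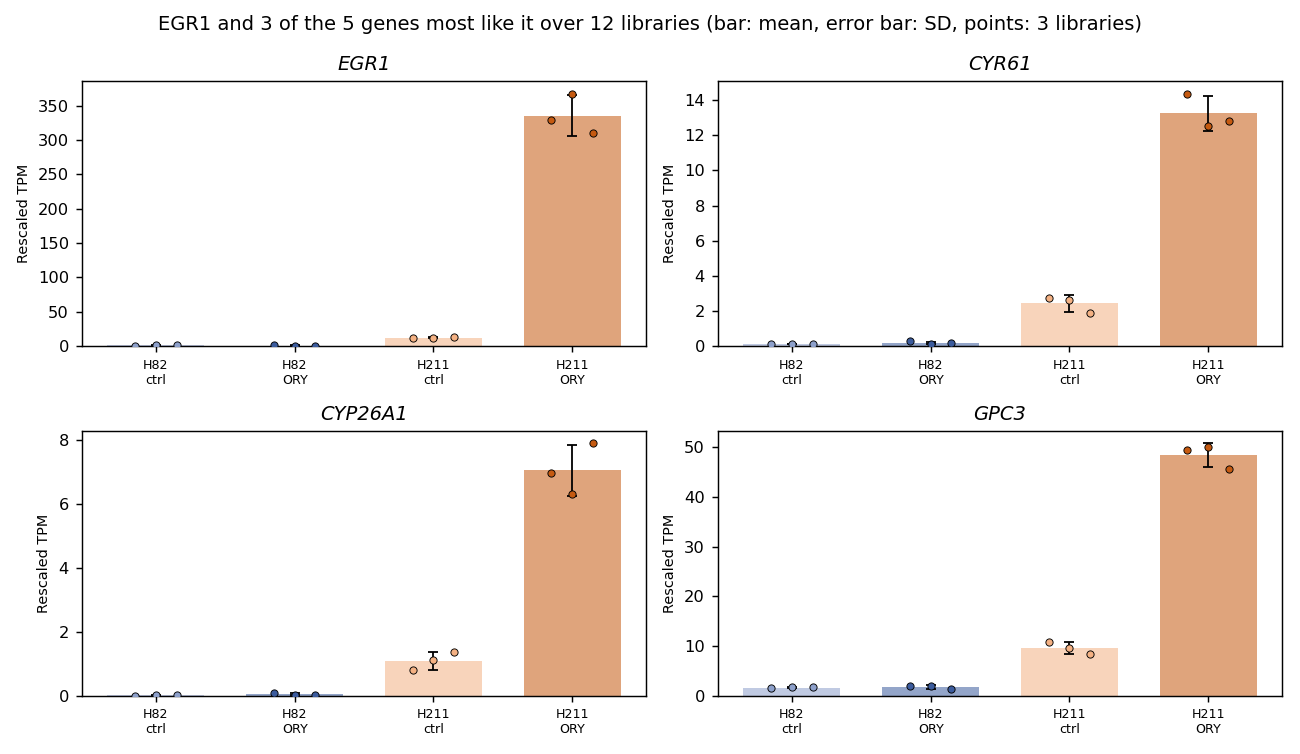
Levels in rescaled TPM (vertical axes from 0) of EGR1 and 3 of the 5 genes with the highest r with it over the 12 libraries. Bars are means of 3 libraries, error bars SD and points libraries. Each panel is highest in treated H211, next highest in H211 controls and low in both H82 groups.

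Other immediate early genes were counted from a list of 42, of which 34 passed the filter, FOSB through treated H211 alone. The list was chosen with earlier results of these data known, beside a set picked by EGR1's rise in H211. Its counts are therefore a description and no independent support. In H211 20 of 34 rose, FOSB, which had to rise, among them, 4 fell and 10 did not pass the test, beside 8.95% of all tested genes higher and 9.61% lower (median log2 fold change 0.53, against -0.0021 over all tested genes). JUN, the AP-1 subunit, rose 7.56-fold, its controls being at 11.21, 11.8 and 12.55 and its treated libraries at 88.66, 89.34 and 90.8 (log2 fold change 2.82, SE 0.054, adjusted p = 4.26e-11). RHOB, an endosomal small GTPase, rose 3.77-fold from 14.9 ± 0.645 to 56.1 ± 0.425 (adjusted p = 1.56e-09), and JUNB 3.8-fold from 13.7 ± 0.723 to 52.1 ± 3.55 (adjusted p = 3.84e-09). The other genes that rose, listed to complete the count, were FOS, FOSB, JUND, ATF3, KLF6, KLF10, BTG2, ZFP36, ZFP36L2, CYR61, CTGF, MYC, PPP1R15A, PLK2, PLK3, CSRNP1 and TIPARP. BTG1, MCL1, MAFF and RGS2 fell. FOS, named after its values were seen, was at 7.103, 17.33 and 6.37 in H211 controls and 94.99, 96.84 and 104.7 with ORY-1001 (adjusted p = 1.08e-05). Its highest control, like that of DUSP1, was H211 control replicate 2.

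In H82 the list went both ways. Of 34 genes 4 rose (FOSL2, JUNB, KLF6 and RHOB), 9 fell and 21 did not pass, beside 19.1% of all tested genes higher and 23.9% lower (median log2 fold change -0.025, against -0.016 over all genes). Without H82 ORY-1001 replicate 3 the count of falls was 5. JUN fell from 8.568, 8.219 and 7.925 to 4.583, 4.535 and 4.697, 1.79-fold lower (adjusted p = 1.82e-06), opposite to its course in H211. RHOB rose 1.37-fold (adjusted p = 5.55e-05) and JUND was 1.33-fold lower (adjusted p = 0.000185). The response was higher in H211 than in H82 for 20 of 34 genes and lower for 2. Of all tested genes 17.8% were higher and 14.3% lower. FOSB, which passed the filter through treated H211 alone and so had to differ, is among the 20. Without the 4 libraries set apart in earlier work, 17 rose and 2 fell in H211, and 16 differed upwards between the lines. NR4A1 and NR4A2, nuclear receptors commonly induced beside EGR1, were named after their values were seen. They averaged 3.04 and 1.49 in H211 controls and 2.72 and 1.45 in treated H211, which did not pass the test (adjusted p = 0.589 and 0.959), and both fell in H82. Of 16 list genes that rose in H211 and had a promoter window, 0 held a CArG box and 11 a TGACG core, and of 11 others 0 and 7 did. Among all 27305 genes with a window 1.44% held a CArG box and 24.9% a TGACG core, and these shares were not tested. A count of 0 says only that these letters are not in these windows, and sequence farther from the start was not searched.

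**Figure D5:**
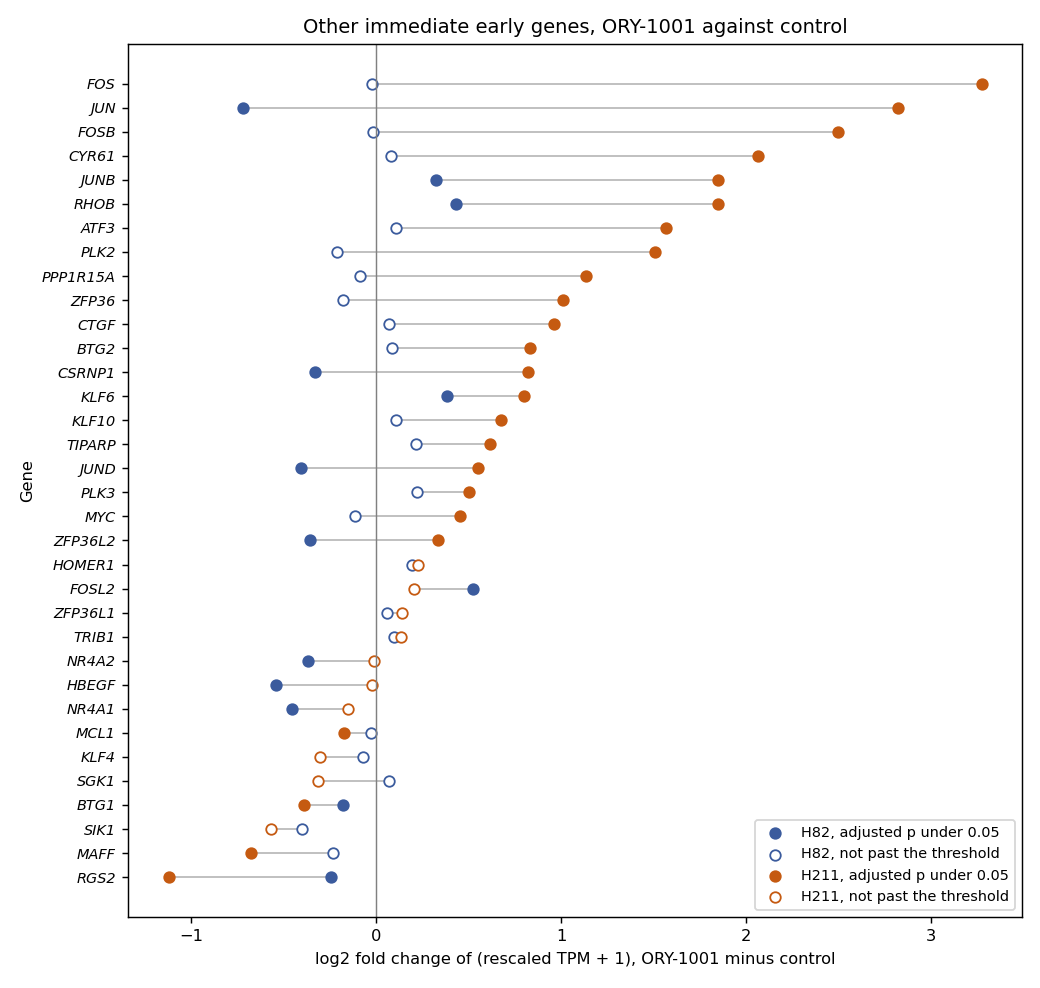
Log2 fold change of rescaled TPM + 1 with ORY-1001 for the 34 tested genes of the immediate early list, ordered by the value in H211 (orange) and joined to the value in H82 (blue). Filled points passed adjusted p under 0.05 and open points did not. In H211 20 filled points lie right of 0 and 4 left, and in H82 4 right and 9 left.

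Genes of the upstream machinery were called in H211 in both directions, where 18.6% of all tested genes were called (8.95% higher and 9.61% lower). In H82 43.0% of all tested genes were called (19.1% higher and 23.9% lower). Of 9 genes for SRF, its cofactors, the ETS partners and CREB, 8 were tested. SRF itself rose 1.19-fold in H211, at 28 ± 0.947 against 23.4 ± 0.67 (log2 fold change 0.25, SE 0.047, adjusted p = 0.00413), a call lost with equal totals without mitochondrial genes. MKL2, a myocardin-related cofactor of SRF, was 1.45-fold lower (adjusted p = 0.00998), and ELK3, an ETS partner, fell too. These 2 falls came to 1 without H211 control replicate 1 or 3 or ORY-1001 replicate 2 or 3. In H82 0 of these rose and CREB1, ELK1 and ELK3 fell, CREB1 being 1.35-fold lower (adjusted p = 0.000832) and ELK1 1.22-fold lower. Of 15 ERK pathway kinases 1 rose (HRAS, 1.13-fold) and 2 fell (among them RPS6KA5, 1.4-fold lower) in H211. The HRAS call was lost without any 1 of the 6 H211 libraries. In H82 2 rose, among them HRAS (1.37-fold), and 6 fell, those with the smallest p being MAP2K2 (1.3-fold lower) and MAPK3 (1.43-fold lower). Of 11 p38 and JNK kinases 0 rose in either line, 1 fell in H211 (MAPK14, 1.27-fold lower) and 3 fell in H82, MAPK10 (2.59-fold lower), MAP2K7 (1.44-fold lower) and MAPK11. MAPK11 passed the filter through H82 controls alone and so had to fall there. These are transcript levels, and kinase activity was not measured.

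Other MAP kinase phosphatases and ERK feedback genes went both ways. Of 14 tested, 4 rose and 3 fell in H211, with a median log2 fold change of -0.078. Of all tested genes 8.95% rose and 9.61% fell there, and 19.1% and 23.9% in H82. In H211 DUSP10, a JNK and p38 phosphatase, rose 1.66-fold (from 4.1 ± 0.165 to 6.79 ± 0.515, adjusted p = 0.000136) and DUSP14 1.29-fold. SPRED2, an inhibitor of RAF activation, was 1.45-fold lower there. In H82 4 rose and 1 fell, with SPRY1, a feedback inhibitor of receptor signalling, 1.65-fold and DUSP9 1.78-fold higher, and DUSP14 1.33-fold. Without H211 control replicate 1 or ORY-1001 replicate 3 the count of rises in H211 was 2, and without ORY-1001 replicate 1 the count of falls was 1. The fall in H82, DUSP16, was lost without control replicate 2 or 3 or ORY-1001 replicate 1 or 2.

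Of 22 textbook EGR target genes other than NAB2 only 11 passed the filter, THBS1 through treated H211 alone. In H211 2 rose (ICAM1 and THBS1, which had to rise), 1 fell and 8 did not pass, with a median log2 fold change of -0.072. Of all tested genes 8.95% rose and 9.61% fell there, and 19.1% and 23.9% in H82. Without any 1 treated H211 library THBS1 missed the filter, so the 2 rises came to 1. VEGFA was called lower by 1.5-fold, from 24.94, 25.87 and 23.64 to 17.45, 16.55 and 15.75 (adjusted p = 0.000296). In H82 VEGFA rose 1.26-fold (adjusted p = 0.00349) and FN1, CDK5R1 and TNFRSF10B fell, FN1, fibronectin, being 3.58-fold lower, from 5.81 ± 0.827 to 1.62 ± 0.768. Among 1859 tested genes with an EGR site in a promoter window, 8.71% rose and 10.7% fell in H211, beside 9.76% and 10.6% of the 10535 tested genes with a window. In H82 17% and 32.1% did, beside 20.5% and 25.8%. These shares carry no test. Of 9 tested partners and relatives of the EGR factors, such as SP1, CHD4 and EP300, 0 were called in H211 in either direction. In H82 SPHK1 rose 1.8-fold and SP1, SP3, EP300, CHD4 and FHL2 fell, FHL2 and SP1 to levels 1.41-fold and 1.59-fold lower. The 5 falls came to 3 without H82 control replicate 1 or ORY-1001 replicate 1. The setting without the 4 libraries set apart in earlier work leaves 1 H211 control and called far fewer genes of every kind in H211. Most H211 calls in the lists of SRF factors, ERK kinases, p38 and JNK kinases, phosphatases and EGR targets were lost there. Nothing is read from that loss.

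Genes beside these loci were examined as well. Of 20 nearest tested neighbours of the 10 genes, 0 rose and 2 fell in H211, beside 8.95% and 9.61% of all tested genes. On either side of EGR1 lie REEP2, 18521 bases away (log2 fold change 0.32, adjusted p = 0.0512), and ETF1, 36780 bases away (-0.04, adjusted p = 0.606). STX10 lies 32 bases from IER2 and had a log2 fold change of -0.12 in H211 (adjusted p = 0.163), where IER2 had 2.24. SH3PXD2B and ERGIC1, next to DUSP1, had -0.03 and 0.01 (adjusted p = 0.894 and 0.939). The 2 neighbours that fell in H211 were NEMP1, beside NAB2, and GLUL, 1288805 bases from IER5. In H82 2 of the 20 neighbours rose and 7 fell, beside 19.1% and 23.9% of all tested genes. NAB2 overlaps the opposite-strand gene STAT6 by 69 bases and NAB1, IER2, IER3, DUSP1 and EGR3 overlap transcripts of the opposite strand, NAB1 by 15823 and 3095 bases. Strand use in counting is not stated in any source at hand, so such pairs may share reads. AC011446.2, antisense to IER2, averaged 1.37 ± 1.38 in treated H211, and IER3-AS1 averaged 3.6 ± 1.13.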

How the data were processed

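Messenger RNA was sequenced as paired ends after oligo(dT) enrichment, per the labels' protocols. Tools named, per the submitters' processing notes, include STAR 2.5.2b, Subread 1.5.2, Trimmomatic 0.36, Salmon 1.1.0 and sleuth 0.30.0, with build hg38. Their order and role are not stated. The authors deposited a TPM-like signal for 56508 symbols in 12 columns, with totals that differ, so it appears rescaled between libraries. Tests planned for TPM were kept for this signal. Rescaled TPM keeps no depth.

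Values were analysed as log2(value + 1), so fold changes of low genes are understated. Genes at 1 or more in at least 3 libraries were kept (15456). All 12 libraries entered a single limma fit (version 3.58.1, R 4.3.3) with a mean per group and a trended variance prior. P-values are two-sided with Benjamini-Hochberg adjustment over all tested genes, called under 0.05. Folds beside means are ratios of group means. The fit was tested on simulated data.

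The genes, lists and tests were chosen with earlier results of these data known. Named list genes were up to 3 called genes per list and line with the smallest p and a mean of at least 5 in a group. Likeness used Pearson's r among genes with a group mean of at least 5, 5 genes for EGR1 and 2 for each other gene whose highest group mean was at least 5 and at least 2 times the lowest. Neighbours were the nearest tested genes on each side in GENCODE release 29 (GRCh38). Promoter windows come from RefSeq.

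Alternatives changed the pseudocount, filter, scaling, variance prior, library weights, samples fitted and replicate block, and left out libraries. Some genes that these rules name are not reported here.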

Additional observations from a re-analysis of the deposited data

Results flagged for a closer look

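The drug response differed between the lines, by the test of the difference itself in limma, in 3 of the 6 genes so tested. Of all tested genes 32.1% were called for this difference (17.8% higher and 14.3% lower in H211). Since EGR1's response in these contrasts chose the set, nothing is read from the count. IER2 responded more in H211 by 2.07 on the log2 scale (SE 0.060, adjusted p = 4.98e-09), being higher in 3 of 3 treated libraries of each line. DUSP1 responded more in H211 by 2.16 (SE 0.248, adjusted p = 8.38e-05), higher in 3 of 3 treated libraries there and overlapping in H82. NAB2 responded less in H211, by -0.61 (SE 0.164, adjusted p = 0.0156), higher in 3 of 3 treated libraries of H82 and overlapping in H211. Groups of 3 libraries are too small for a search for single deviating libraries.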

How the results depend on the processing

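Over the 6 tested genes and 5 comparisons, 762 of 774 results kept their direction and their side of the threshold, 6 lost and 5 gained a call and 1 reversed. The reversal was NAB2 in H211 without the 4 libraries set apart in earlier work (H82 ORY-1001 replicate 3, H211 control replicates 1 and 2 and H211 ORY-1001 replicate 3), at 0.13 on the log2 scale (adjusted p = 0.675). IER2 between the controls was then 0.12 (adjusted p = 0.124). That setting leaves fewer libraries, 1 of them an H211 control assumed to vary like the other groups. It called 559 genes in H211 (312 higher, 247 lower) and 2899 for the difference between lines (1687 higher, 1212 lower), against 2868 and 4956. Leaving out 1 library at a time gave 1960 to 3042 called genes in H211, 944 to 1518 higher and 987 to 1524 lower. The count of 1485 lower genes moved past 1.5 times without H211 control replicate 1 (987) or 2 (989). Equal totals gave 950 higher and 1759 lower in H211, and equal totals without mitochondrial genes 961 and 2016, against 1383 and 1485. The latter shifted the median of the control comparison by 0.17 and of the treated comparison by 0.12, and equal totals that of the controls by 0.12. Replicate numbers did not pair the libraries (same-numbered deviations correlated at -0.0805 to 0.0449), and the replicate block gave 2497 called genes in H211 and 6429 in H82 and changed 0 of 30 calls of these genes. The log2 fold change of EGR1 in H211 ran from 4.31 to 4.78 over all settings. Depth is unknown, so its limits on low genes such as EGR3 and EGR4 cannot be given.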
